A study of Homo sapiens with 12 samples.

Results

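In SUPT-1 cells that overexpress the STAT5B mutant N642H, prednisolone gave 2888 regions bound by NR3C1, the glucocorticoid receptor, on chromosomes 1 to 22, X and Y. Of these, 1354 were absent from the NR3C1 list of the wild-type STAT5B line with prednisolone and also lay at no STAT5B region of either line without prednisolone. They are called N642H-only NR3C1 regions here. They were chosen by their absence from those lists (overlap of at least 1 bp), so their presence in 1 list and absence from the others is how they were selected and is no finding. The 8 deposited lists held 11908 regions in all. The other NR3C1 regions of the N642H line fell into 656 found in both lines without untreated STAT5B, 231 found in both lines at untreated STAT5B, and 647 found only in the N642H line at untreated STAT5B.

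SUPT-1 is a long-established human cell line from a T-cell lymphoblastic malignancy. All cells carried a doxycycline-inducible STAT5B, wild type (WT line) or N642H (N642H line), were selected with puromycin and were induced with doxycycline. They were cultured with or without prednisolone, a synthetic glucocorticoid, at 250 µg per ml for 16 hours, and "untreated" means doxycycline without prednisolone. The series had 12 samples in 12 groups, 8 chromatin immunoprecipitation (ChIP) libraries and 4 input libraries, with 1 library in each group. No difference between lines or treatments therefore has a replicate check, the groups hold a transgene on top of the cells' own STAT5B, and the labels do not say whether each line is 1 clone. Peak lists hold no expression, so the T-cell identity of the line could not be checked against its markers.

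NR3C1 is a ligand-activated transcription factor. When bound by a glucocorticoid it enters the nucleus and binds DNA as a dimer at the glucocorticoid response element, a palindrome of the hexamer AGAACA and its reverse complement TGTTCT with 3 bases between them, or joins DNA through other factors. In immature T cells its activation leads to growth arrest and apoptosis, which is why glucocorticoids are a mainstay of leukaemia treatment. STAT5B acts downstream of cytokine receptors such as the interleukin-7 receptor, binds TTCNNNGAA elements and drives survival genes, and N642H is a mutation of its SH2 domain found in T-cell leukaemia that keeps the protein active.

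Most members lie far from promoters, but 73 of the 1354 overlapped 88 RefSeq promoter windows (GRCh38, 250 bases before to 50 bases after a start), and 55 had their summit inside one. These windows are shown first because they are the members whose DNA could be read here. In 4 of the 88 windows the response element was found with at most 2 mismatches in its 12 fixed bases. For each, 120 upstream bases that hold the match are printed 5′ to 3′ on the strand of the gene, with the 15-base match in capitals. The ABCD2 stretch is chr12:39605614-39605733 on the minus strand, the TMT1A stretch chr12:50924863-50924982 on the plus strand, the LOC124904656 stretch chr19:19366895-19367014 on the minus strand and the LOC105376239 stretch chr9:116837669-116837788 on the plus strand.
ABCD2: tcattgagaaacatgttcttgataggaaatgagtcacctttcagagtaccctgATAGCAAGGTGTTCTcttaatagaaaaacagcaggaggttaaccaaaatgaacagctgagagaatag
TMT1A: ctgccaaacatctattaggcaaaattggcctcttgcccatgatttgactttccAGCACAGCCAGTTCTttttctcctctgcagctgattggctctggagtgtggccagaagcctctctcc
LOC124904656: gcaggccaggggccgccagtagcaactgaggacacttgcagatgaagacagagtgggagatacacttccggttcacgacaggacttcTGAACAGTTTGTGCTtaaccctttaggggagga
LOC105376239: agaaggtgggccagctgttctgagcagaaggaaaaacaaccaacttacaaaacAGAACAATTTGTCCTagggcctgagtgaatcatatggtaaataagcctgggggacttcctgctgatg

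The match in ABCD2, which encodes a peroxisomal fatty-acid transporter, lay 0 bp from the summit of a member of fold 8.83. The match in the non-coding gene LOC105376239 had 1 mismatch and lay 6 bp from a summit of fold 7.35. In TMT1A and LOC124904656 the matches lay 72 bp and 36 bp from summits of fold 4.67 and 6.53. Fold is the authors' ratio of ChIP signal to local background at the summit. The summits nearest to their match were thus those of ABCD2 and LOC105376239.

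A second set is shown because it holds strong summits in protein-coding promoters. The member at the start of ABCB9 also lies in the promoter of OGFOD2, a pair of genes that run in opposite directions. Its span is chr12:122975051-122975273, its fold was 13.4, and the stretch printed is chr12:122975115-122975234 on the minus strand, upstream of ABCB9. The RAG2 promoter drives a subunit of the recombinase that assembles T-cell receptor genes. Its member, chr11:36598235-36598495, had a fold of 10.1 and a summit 126 bp from the start, and the stretch printed is chr11:36598303-36598422 on the minus strand. It also falls within the span of IFTAP. No letters are in capitals, since neither stretch held a response element with at most 2 mismatches.
ABCB9: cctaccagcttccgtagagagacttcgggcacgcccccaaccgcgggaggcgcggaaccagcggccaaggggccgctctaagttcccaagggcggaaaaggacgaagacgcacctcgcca
RAG2: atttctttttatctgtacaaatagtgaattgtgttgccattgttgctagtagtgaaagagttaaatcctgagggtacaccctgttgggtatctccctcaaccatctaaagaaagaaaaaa

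Counted over the 88 promoter windows, on both strands, the response element with at most 2 mismatches was in 4.55% (exact 95% interval 1.25 to 11.2), against 1.41% of all 35116 windows. Its hexamer AGAACA alone was in 23.9% (15.4 to 34.1), against 14.8% of all windows and 10.7% of the 197 windows overlapped by N642H-only NR3C1 regions at untreated STAT5B. The STAT element TTCNNNGAA was in 13.6% (7.25 to 22.6) of the members' windows and 13.7% of those of the regions at untreated STAT5B, against 7.66% of all. The AP-1 element TGANTCA was in 11.4% (5.59 to 19.9), against 7.71% of all. The share of all windows lay inside the members' interval for the response, STAT and AP-1 elements. For the hexamer it lay just below the interval. It also lay inside for RUNX (members 17.0%, all 13.1%), ETS (3.41%, 2.99%) and E-box (19.3%, 17.9%) elements. The same held for the element of the GATA3 family (5.68%, 10.3%), which was rarer in the members' windows. The hexamer was thus the exception among several untested counts. The 17 windows of regions of both lines without untreated STAT5B held 0 response elements and 1 hexamer, too few to compare. Some of the 88 windows share a member, so they are not independent as the intervals assume. The windows also differed in base composition, with a median GC content of 62.8% in the members', 64.0% in those at untreated STAT5B and 58.7% in all, and the part of this in the counts was not tested. A match describes letters in a window and is no binding site by itself.

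The members were weak on the whole, with a long upper tail. Their fold had a median of 7.24 and ran from 1.56 to 82.4, and their −log10 q, the authors' measure of confidence in a peak, had a median of 8.62 and ran from 2.01 to 330. The NR3C1 regions of both lines without untreated STAT5B had a median fold of 14.0 and a median −log10 q of 25.9. The N642H-only regions at untreated STAT5B were as weak as the members, with medians of 7.22 and 8.20. The rule used presence in these lists, so these values are a description and were not tested. The pileup, the number of fragments over the summit recovered from the deposited values, had a median of 15 in the members and in the N642H-only regions at untreated STAT5B, and of 29 in the regions of both lines without it. A −log10 q of at least 10 was reached by 548 members (40.5%), of at least 50 by 57 and of at least 100 by 19.

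When all 2888 regions were cut into 5 groups of equal size by pileup, members made up 65.2% of the weakest group, then 58.2%, 49.8%, 34.8% and 26.3% of the strongest. The regions of both lines without untreated STAT5B went the other way, from 3.46% of the weakest group to 50.2% of the strongest. The N642H-only regions at untreated STAT5B fell as the members did, from 29.4% to 9.17%. Without regions of high local background, described below, members were 96 of 521 regions of the strongest group (18.4%). The NR3C1 list of the WT line held 995 regions, and when the N642H list was held to its 995 strongest regions, 261 members were left.

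**Figure D1:**
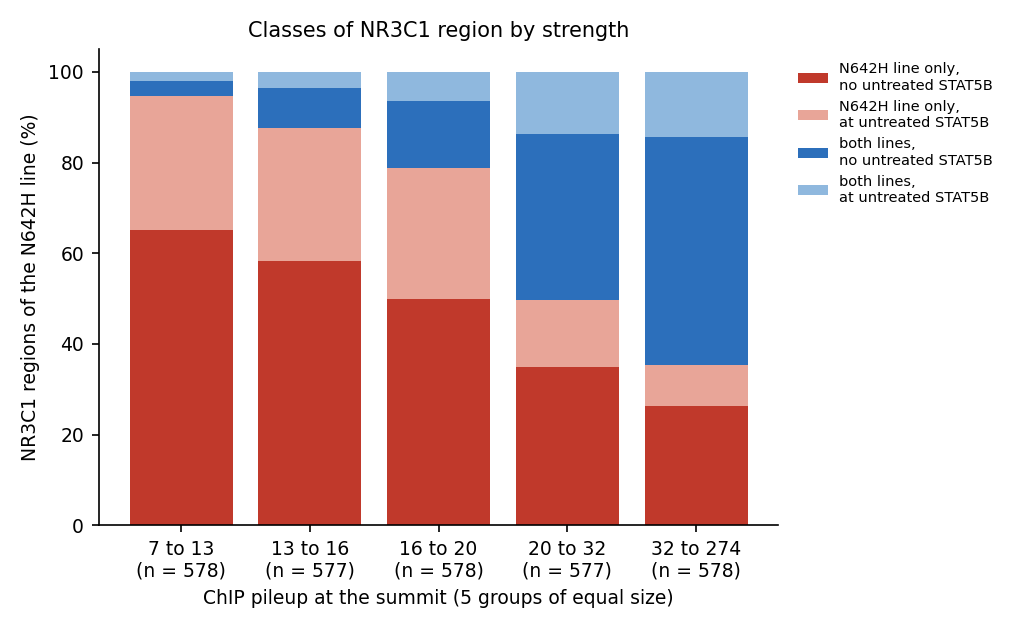
Share of the NR3C1 regions of the N642H line (%) in each class, in 5 groups of equal size by ChIP pileup at the summit (fragments). The dark red share, the N642H-only regions without untreated STAT5B, went from 65.2% in the weakest group to 26.3% in the strongest.

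At the edges of the rule the weakest members were at SYNM (−log10 q 2.01) and XPO1 (2.05), just above the lowest values in the lists. The members closest to a WT NR3C1 region lay 156 bp from it at SMARCD2, 192 bp at PDE3B, 218 bp at HHAT and 219 bp at TSC22D3. Just outside the rule was a region at LAT, which encodes an adaptor of the T-cell receptor. It had a fold of 14.4 in the N642H line and of 3.83 (−log10 q 2.03) in the WT line. None of the members overlapped an NR3C1 region of untreated cells, where each line had 2 regions.

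The local background split the members into 2 sets. For 1298 members it lay between 0.656 and 4.07 fragments, and for 56 between 43.4 and 124, with none in between. These 56 had pileups of 81 to 274, as high as those of the strongest others, but folds of only 1.56 to 2.61. Of the 58 NR3C1 regions of the N642H line with a background at least 10 times the genome level of 0.656, 56 were members. They sat in a few blocks: 16 at chr1:143185117-143266902, 13 at chr16:34572624-34595597, 11 at chr16:46386367-46401640 and 6 at chr5:49601508-49661788. None lay in a protein-coding gene, and the nearest such gene was at least 30423 bp away.

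**Figure D2:**
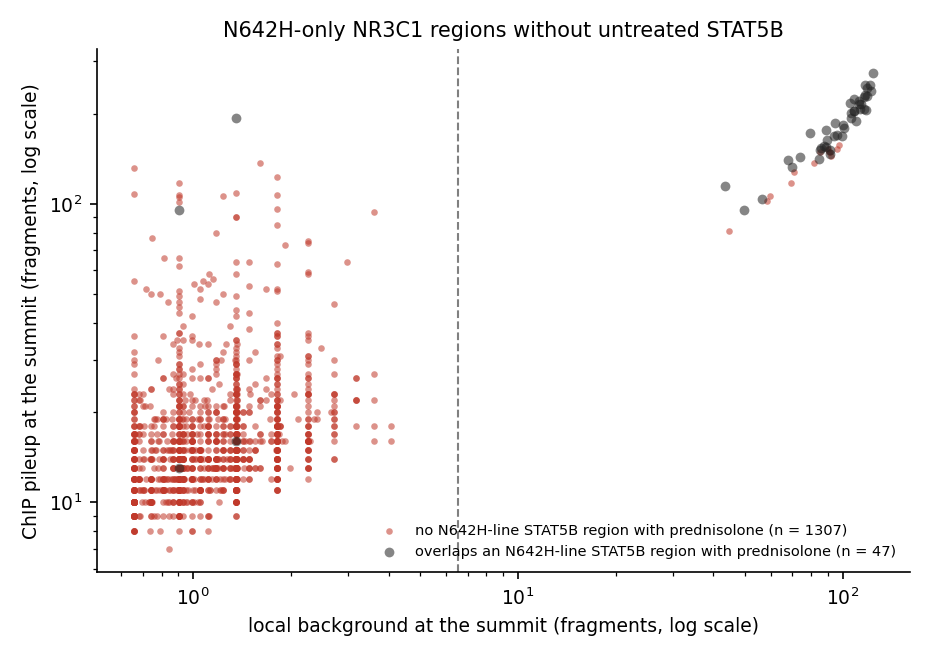
ChIP pileup against local background at the summit of each of the 1354 members, in fragments on log axes. Points right of the dashed line (background of 6.56) are the 56 high-background members, and dark points are the 47 members that overlap a STAT5B region of the N642H line with prednisolone.

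The rule used only the STAT5B lists of untreated cells, so the STAT5B lists with prednisolone ask whether a STAT5B region was called at the members once the drug is given. These lists were short, with 446 regions in the N642H line against 4542 untreated, and 766 in the WT line against 2267 untreated. A low share of overlap with so short a list does not show that STAT5B was absent. In the N642H line 47 members (3.47%, exact interval 2.56 to 4.59) overlapped a STAT5B region with prednisolone, against 7.76% of all 2888 regions. The 2888 include the regions at untreated STAT5B, which the rule kept out of the members. Of those, 21.2% of the regions in both lines and 17.3% of the N642H-only regions overlapped. The lower share of the members against all regions is thus in part set by the rule. Of these 47, 43 were high-background members. Without the high-background regions 4 of 1298 members were left (0.308%, 0.0840 to 0.787), against 16 of 655 regions of both lines without untreated STAT5B (2.44%, 1.40 to 3.94).

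With all regions in place the odds ratio of members against regions of both lines was 1.44 (two-sided Fisher's exact test, adjusted p = 0.412), and 6.12 within pileup groups (Mantel-Haenszel, 3.35 to 11.2), where the interval excludes 1. That value includes the high-background members. Without high-background regions the odds ratio was 0.123 (Fisher's exact test, adjusted p = 3.73e-05). Within the 5 pileup groups and without high-background regions it was 0.381 (Mantel-Haenszel, 95% interval 0.106 to 1.37), so the call was lost between regions of like strength. These tests compare regions of these libraries, not conditions.

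Among the members of ordinary background, the strongest of all had STAT5B with prednisolone. It lay at chr13:50760734-50761204 within DLEU7, a gene of a chromosome 13 segment often deleted in lymphoid leukaemia, with an NR3C1 fold of 82.4, a −log10 q of 330 and a STAT5B fold of 8.99. The nearest untreated STAT5B region of the N642H line was 148548 bp away. The member at chr6:148881890-148882240 within UST, a sulfotransferase gene, had an NR3C1 fold of 50.4 and a STAT5B fold of 9.03. The remaining members of this kind lay within EPHB1 (NR3C1 fold 7.22, STAT5B fold 5.67) and GTF3C5 (7.35 and 7.91). None of the 4 overlapped a STAT5B region of the WT line with prednisolone. Of the 10 strongest members that overlapped a prednisolone STAT5B list, the other 8 were of high background, nearest to PROS1, SHCBP1, LOC124903767 and LINC02798, with NR3C1 folds of 1.95 to 2.20 and STAT5B folds of 2.42 to 2.81.

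In the WT line 7 members (0.517%, 0.208 to 1.06) overlapped a STAT5B region with prednisolone, against 32 of the 656 regions of both lines without untreated STAT5B (4.88%, 3.36 to 6.82) and 9.04% of all 2888 regions. The 2888 again include the regions at untreated STAT5B, of which 40.7% (both lines) and 19.8% (N642H line only) overlapped. The odds ratio was 0.101 (Fisher's exact test, adjusted p = 5.84e-10) and 0.0591 (Mantel-Haenszel, 0.0142 to 0.246) within pileup groups without high-background regions. Members are by rule without NR3C1 in the WT line and the regions of both lines have it, so the 2 sets differ in WT NR3C1 by construction. The 7 members, which include 1 within CLEC16A (STAT5B fold 5.59), 1 near VIPR2 (5.94) and 1 near INTS4 (8.17), were a different set from the 47 of the N642H line: 54 members were in either list. INTS4 is named after its value was seen.

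Position in the genome was not used by the rule itself, but the rule kept regions at untreated STAT5B out of the members. The 2888 regions below include them. A summit within 1 kb of an end of a protein-coding gene was found for 101 members (7.46%, exact interval 6.12 to 8.99), against 12.1% of all 2888 regions. Of the 101, 77 were at the start of the gene, 13 at its finish and 11 at a gene with no strand in the table. The share was 6.25% (41 of 656) in the regions of both lines without untreated STAT5B (odds ratio 1.21, Fisher's exact test, adjusted p = 0.424). It was 26.4% (171 of 647, 23.1 to 30.0) in the N642H-only regions at untreated STAT5B (odds ratio 0.224, Fisher's exact test, adjusted p = 4.48e-28). Within pileup groups that odds ratio was 0.210 (Mantel-Haenszel, 0.159 to 0.277), so the difference was as large between regions of like strength.

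Inside a gene, away from its ends, lay 649 members (47.9%, 45.2 to 50.6), against 45.4% of all 2888 regions. The share was 48.5% in the regions of both lines without untreated STAT5B (odds ratio 0.978, Fisher's exact test, adjusted p = 0.849; within pileup groups 0.883, Mantel-Haenszel interval 0.712 to 1.10). It was 39.7% in the N642H-only regions at untreated STAT5B (odds ratio 1.40, Fisher's exact test, adjusted p = 0.00129). Regions found only in the N642H line that lay at untreated STAT5B thus had more summits at gene ends and fewer counted inside genes than the members. A summit at a gene end cannot count as inside a gene here. The lower share inside genes therefore follows in part from the higher share at gene ends and is no separate result. Those at a WT STAT5B region had 38.9% at a gene end (111 of 285), and those at STAT5B of the N642H line alone 16.6% (60 of 362).

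**Figure D3:**
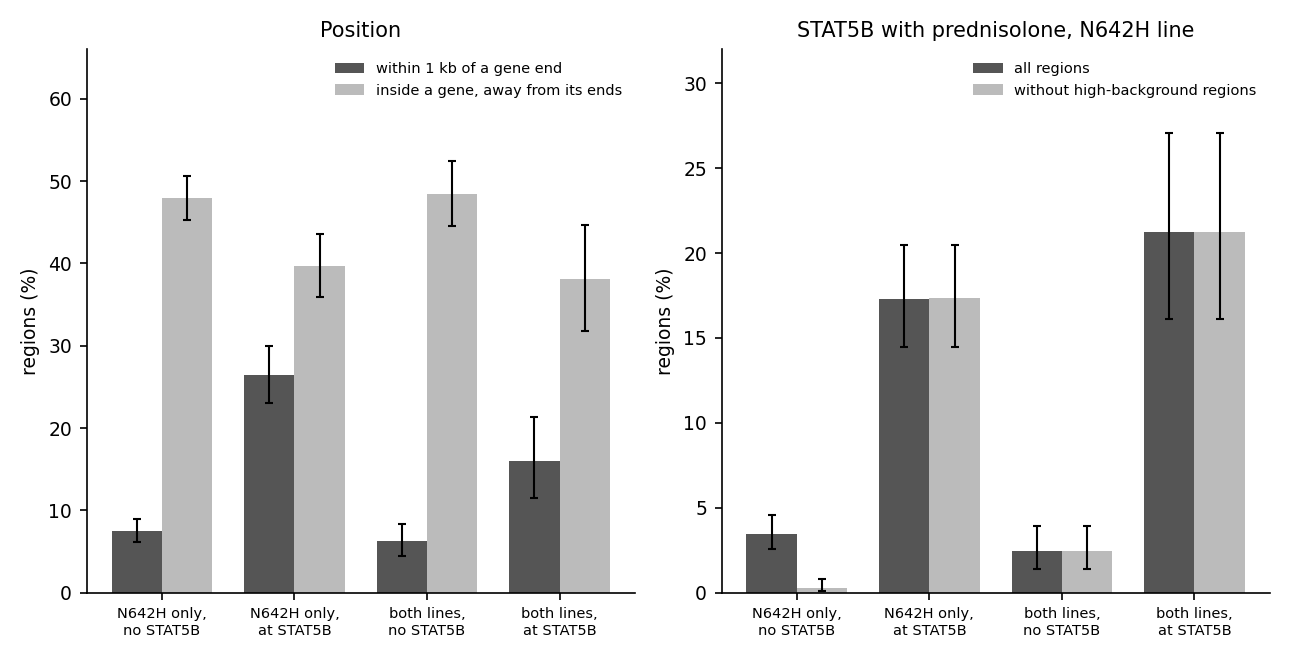
Shares of regions (%) with exact 95% Clopper-Pearson intervals in 4 classes of NR3C1 region of the N642H line, where "STAT5B" means STAT5B of untreated cells. Left: within 1 kb of a gene end (7.46% of members, 26.4% of N642H-only regions at STAT5B) and inside a gene. Right: overlap with STAT5B of the N642H line with prednisolone, which in the members went from 3.47% to 0.308% without high-background regions.

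Most members lay far from the NR3C1 regions of the WT line. The median distance to the nearest NR3C1 region of the WT line was 609461.5 bp, 54 members lay within 5 kb of one and 204 (15.1%) within 50 kb. Untreated STAT5B of the N642H line was closer, at a median of 131721.5 bp with 423 members (31.2%) within 50 kb, but that list was also longer, with 4542 regions against 995. Another member lay within 50 kb of 268 of the 1298 members of ordinary background (20.6%), with a median distance of 332197 bp. For the 656 regions of both lines without untreated STAT5B the share with another of their kind so near was 13.1%, and the median 849637.5 bp. The members are also more numerous, and the part of this in the distances was not tested. Members of ordinary background made up 31.0% of the regions on chromosome 19, the lowest share, and 54.8% on chromosome 18, the highest.

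The 20 members with the highest −log10 q had folds of 30.6 to 82.4 and pileups of 66 to 193, and none was of high background. Of their summits, 11 were inside a protein-coding gene and 9 outside, with 3 over 100 kb from the nearest gene and 1 at a gene end. The nearest WT NR3C1 region was at least 56947 bp from each. After DLEU7 came a region 2700 bp from NF2, the tumour suppressor merlin (chr22:29701078-29701460, fold 80.3), and a region 216669 bp from PTPRC, the leukocyte phosphatase CD45 (chr1:198973914-198974332, fold 52.9).

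IKZF1 encodes Ikaros, a zinc-finger factor of lymphoid development that is often lost in leukaemia. The member 11101 bp outside it, chr7:50416015-50416392, had a fold of 62.0 and a −log10 q of 195. The nearest WT NR3C1 region was 72907 bp away, although the gene was also linked to a region found in both lines. Within TSC22D4, of the leucine-zipper family of the glucocorticoid target TSC22D3, the fold was 65.8, and within ANGPTL4, a lipase inhibitor, 56.7 (chr19:8374107-8374560). A member 62427 bp from CXCR4 lay at chr2:136051758-136052080 and had a fold of 37.2. Others were nearest to NUP160, PCDH15, SOX5, APBA1, PCDH9, TDRD9, COL11A1, TRIM13, RNF111, PLA2G4E and SLC9A9, with folds from 34.5 at RNF111 to 55.7 at PCDH15.

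A set of members lay in a gene family of near-identical copies on chromosome 2, RANBP2, which encodes a nuclear pore protein, and its RGPD duplicates. These were chosen after their values were seen. All 8 copies on the chromosome held a member, 11 in all, and none held a region of the WT list. Of all 1013 genes linked to a member, as defined below, 82.9% had no linked WT NR3C1 region either. Not every NR3C1 region of the N642H line in these spans was a member. In RGPD1 it was 1 of 2 regions, and in the span of RANBP2 2 of 3. Copies this alike cannot count as 8 separate cases. The strongest member of each had a fold of 23.3 in RGPD1, 26.1 in RGPD2, 27.8 in RGPD3, 27.4 in RGPD4, 16.8 in RGPD5, 11.9 in RGPD6, 19.0 in RGPD8 and 7.43 in RANBP2. In RGPD2, RGPD3 and RGPD4 a weaker member of fold 8.28, 8.09 and 7.86 lay 9731, 9823 and 9847 bp from the stronger. Each member was assigned to the shortest family gene that holds it, because the span of RANBP2 in the table also contains the member of RGPD5. The spacing within RGPD2, RGPD3 and RGPD4 was nearly the same. Reads from copies this alike can be placed at any of them, so the number of bound copies is uncertain.

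Genes with a member's summit inside them or at most 20 kb outside count as linked. This held for 1013 of 19862 protein-coding genes (5.10%), 869 of them with 1 member and 32 with 3 or more. An NR3C1 region of both lines was linked too for 157 genes, which is 15.5% of the 1013 and 21.4% of the 734 genes linked to regions of both lines. Untreated STAT5B of the N642H line was linked to 425 of the 1013 (42.0%) and to 28.9% of all genes. The linked genes were long, with a median span of 71 kb against 24.5 kb for all genes, and a longer gene has more room for a summit. Genes linked to NR3C1 regions of both lines were also long, with a median of 64.1 kb. The part of gene length in the counts below was not tested.

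FARS2, a mitochondrial phenylalanine-tRNA ligase, had the most members, 5, with the strongest at fold 20.6 and the other 4 between 5.39 and 5.67. ANKRD44, TNRC6B, CDKAL1, HECW2, UBE2H, CLEC16A and VIPR2 had 4 each. UST and ADGRE5, which encodes the leukocyte receptor CD97, had 3, with the strongest at fold 50.4 and 22.8. Of these 10 genes, CLEC16A and VIPR2 also had a linked region of both lines, as did 15.5% of all 1013 genes linked to a member. Their spans ran from 27280 bp in ADGRE5 to 697948 bp in CDKAL1, and FARS2 spans 521650 bp.

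Transcription factors of the T lineage set the highest share among 10 gene lists. Of 24 listed genes 13 (54.2%) were linked to a member, against the 5.1% of all genes, and the list's median span was 101 kb. Regions of both lines were linked to 5 of the 24, against 3.70% of all genes, and untreated STAT5B of the N642H line to 15 of the 24, against 28.9%. Of the 13, 11 had no region of both lines, close to the 84.5% of all 1013 genes. Only 9 of the 13 had no NR3C1 region of the WT line, against 82.9% of the 1013. IKZF2 and ETV6 had no region of both lines, but each had a linked WT NR3C1 region. After IKZF1 came TCF12, an E protein, with 3 members and a strongest fold of 12.5 (chr15:57196632-57196921), and IKZF2, the Ikaros relative Helios, with 3 members and a strongest fold of 9.82. LEF1, the nuclear partner of beta-catenin, had 2 members of fold 11.5 and 11.0. The stronger lay 13908 bp outside LEF1 and within HADH, the weaker within LEF1. ETS1 had 2 with a strongest fold of 8.04. The remaining ones were BCL11B, ETV6, TOX2, RUNX3, MYB, GATA3 and SATB1, with strongest folds from 4.27 in SATB1 to 7.31 in BCL11B, and TOX.

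**Figure D4:**
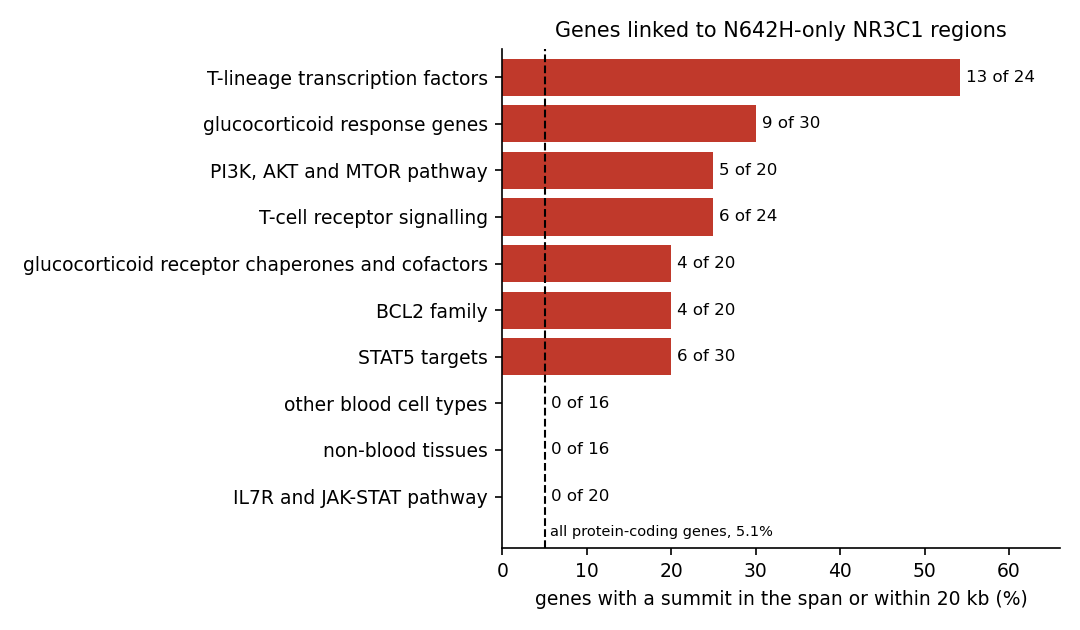
Share of the genes of each of 10 lists (%) linked to at least 1 member, with the counts beside the bars. The dashed line is the share of all protein-coding genes, 5.1%. The T-lineage transcription factors had the highest share (13 of 24) and 3 lists had none.

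Of 30 glucocorticoid response genes 9 (30%) were linked to a member, against 5.1% of all genes, and 7 of the 9 also had a region of both lines, against 15.5% of the 1013. Regions of both lines were linked to 19 of the 30, against 3.70% of all genes. They were thus common across this list and no trait of the genes with members. TSC22D3, the gene of the leucine-zipper protein GILZ, had a member of fold 13.3 beside 3 regions of both lines. CXCR4, a chemokine receptor, had one of fold 8.49 at 1712 bp from a WT NR3C1 region. DDIT4, an inhibitor of mTOR, had one of fold 8.79, and BIRC3, an inhibitor of apoptosis, had 2. FKBP5, the receptor's co-chaperone, had 3 members of fold 4.27 to 5.34, of which 2 lay 1065 and 1167 bp from a WT NR3C1 region. Only FOXO3 (fold 7.85), a forkhead factor that induces apoptosis genes, and NR3C1 itself (fold 4.67) had members without a region of both lines. Most of these classical target genes with members were thus also linked to regions found in both lines. This is a count of genes and not a distance: the third FKBP5 member lay 37857 bp from the nearest WT NR3C1 region.

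Of 30 STAT5 targets 6 (20%) were linked to a member, against 5.1% of all genes, and 3 with members in the span only. Of the 6, 5 had no NR3C1 region in the WT line, close to the 82.9% of all 1013 genes linked to a member. BCL2, the anti-apoptotic gene whose name stands in the study's title, had 3 members in its span. They were chr18:63290920-63291261 (fold 18.4, pileup 59), chr18:63205804-63206108 (fold 14.1, pileup 23) and chr18:63157467-63157735 (fold 4.99, pileup 13). The nearest WT NR3C1 region was 572628 bp or more from each, and no untreated N642H STAT5B region was linked to the gene, the nearest lying at least 131090 bp from each. SOCS2, a feedback inhibitor of cytokine signalling, had 1 member of fold 13.7 within the gene, 16657 bp from untreated STAT5B.

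CISH, an inhibitor of the same kind, had 2 members of fold 7.78 and 7.24 outside its span, 10392 and 11363 bp from untreated STAT5B. SPRED2, an inhibitor of the RAS pathway, had a fold of 9.96 and 4 linked untreated STAT5B regions of the N642H line. MCL1, an anti-apoptotic BCL2 relative, had a fold of 7.22 at 6339 bp, and CD69, an activation antigen, had one of 7.12 beside a region of both lines. The members of BCL2 and CD69 lay over 100 kb from untreated STAT5B of the N642H line, at distances near or above the median of all members, and those of CISH, SOCS2, SPRED2 and MCL1 lay nearer to it.

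Of 20 BCL2 family genes 4 (20%) were linked, against 5.1% of all genes. None of the 4 had a region of both lines, nor did 84.5% of all 1013 genes linked to a member. Besides BCL2 and MCL1 they were PMAIP1, which encodes the pro-apoptotic protein NOXA (fold 12.8, 19081 bp outside the gene), and BID, a pro-apoptotic BH3 protein (fold 10.3, 13479 bp outside). The member linked to BID lay within MICAL3. Only BCL2 had a member within its span, so with members in the span only the count was 1. Of 20 genes of the interleukin-7 receptor and JAK-STAT pathway none was linked to a member, against 5.1% of all genes, a share at which few of 20 would be linked. Within 50 kb the count was 2. Untreated STAT5B of the N642H line was linked to 12 of the 20, against 28.9% of all genes, and regions of both lines to 5, against 3.70%.

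Of 24 genes of T-cell receptor signalling 6 were linked (25%), against 5.1% of all genes, and 2 with members in the span only, since those of CD3D, CD3E, CD3G and CD28 lay outside the genes. RHOH, a GTPase of the ZAP70 pathway, had members of fold 14.0 and 11.7. The stronger lay 6957 bp outside RHOH and within N4BP2, the weaker within RHOH. CD3D, CD3E and CD3G share 1 member of fold 6.47 at chr11:118334715-118335046, so these 3 count a single region. CD247, the CD3 zeta chain, had 2 with a strongest fold of 7.54, and CD28, the costimulatory receptor, 1 of fold 6.44. Only 3 of the 6 linked genes had no NR3C1 region of the WT line, against 82.9% of all 1013 genes linked to a member. RHOH, CD3E and CD28 each had a linked WT NR3C1 region.

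Of 20 genes of the PI3K, AKT and MTOR pathway 5 were linked (25%), against 5.1% of all genes. The list's median span was 89.4 kb, against 24.5 kb for all genes. RICTOR, the defining subunit of MTOR complex 2, had the strongest, chr5:39016469-39016842, with a fold of 26.0 and no WT NR3C1 region within 3116298 bp. PIK3R1, the regulatory subunit of PI3K, had 3 members of fold 5.66, 6.77 and 11.2 and also a region of both lines. MTOR and RPTOR, of which RPTOR defines MTOR complex 1, had 1 each of fold 6.49 and 6.89, likewise with a region of both lines. Of 20 genes for chaperones and cofactors of the receptor 4 were linked (20%), against 5.1% of all genes, and the list's median span was 94.4 kb. The 4 were STIP1 (fold 7.73), FKBP5, NRIP1 (5.64) and NR3C1.

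No member was linked to any of 16 genes of non-blood tissues or of 16 genes of other blood cell types, whose median spans were 12.3 and 7.55 kb. At the 5.1% of all genes few of 16 would be linked, and within 50 kb each list had 1. Of 11 T-lineage markers 5 were linked to a member, CD3D, CD3E, CD3G, CD1A and RAG1, against 5.1% of all genes. The 3 CD3 genes share 1 member. Regions of both lines were linked to 3 of the 11, against 3.70% of all genes. The member linked to RAG1 lies at RAG2, where the promoter stretch printed above is joined by a further member 7125 bp from the gene (fold 11.8).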

How the data were processed

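Of the 12 samples, 8 ChIP libraries were used, each as the peak list its authors deposited. The 4 input libraries were not analysed here. BWA, MACS2, deepTools and the build hg38 are named in the submitters' processing notes, and their versions are not given in the sources used here. Whether a list was called against an input is not stated either. In the files, per the file values, the deposited score is 10 times −log10 q as a whole number, the deposited fold is a ratio of pileup to local background with a pseudocount of 1, and the authors also deposited −log10 p and −log10 q per peak, with a q-value cut at −log10 q of 2. No p-value or q-value of a peak was recomputed, and folds of different lists describe those lists only. Depth is known only through the pileup.

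The pileup and local background were solved from the deposited fold and −log10 p under a Poisson formula, and checked on simulated data. A background at least 10 times the genome level was called high. Regions were compared by overlap of 1 bp. Gene spans came from RefSeq GRCh38.p14, promoter windows and their sequences from RefSeq of the same assembly (the table is incomplete). The planned motif search around every summit was not run, because no genome was used here, and the planned promoter count stands in its place. The 6 Fisher's exact tests were adjusted by the Benjamini-Hochberg method, and intervals are Clopper-Pearson, for counting error over regions only. Mantel-Haenszel odds ratios were taken within 5 pileup groups. Alternatives changed the overlap rule, the −log10 q and fold minimum, list length, gene distance and background limit.

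Genes named are those nearest to the 20 strongest members and to the 10 strongest at prednisolone STAT5B, the 10 with most members, and up to 6 of each list by −log10 q. Some genes that this rule names are not reported here. Genes of a list beyond these, those at the edges of the rule, the RGPD family, and the promoters and RAG2 chosen for their sequence, were picked after their values were seen. The members and gene lists were chosen with earlier results of these data known. Analyses used Python 3.11.15, pandas 2.3.3, scipy 1.17.1 and statsmodels 0.14.6.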

Additional observations from a re-analysis of the deposited data

Results flagged for a closer look

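The NR3C1 list of the N642H line with prednisolone also held 34 regions on 12 unplaced or alternative sequences, which the report did not use. Of these, 22 met the same overlap rule, and the untreated NR3C1 lists had 0 regions on such sequences in the N642H line and 1 in the WT line. Over the 34 regions the fold ran from 1.51 to 11.3, and 11 overlapped a STAT5B region of the N642H line with prednisolone. They are given because they lie in rows outside the comparisons. The untreated lists held only 2 regions each on the main chromosomes, so being above them does not set these sequences apart from other regions seen with prednisolone.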

How the results depend on the processing

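The number of members was 1354, between 1298 and 1387 under the other overlap, strength, sequence and background settings, and 261 when both NR3C1 lists were held to equal length. Against regions of both lines without untreated STAT5B, the odds ratio of lying at a gene end changed direction from 1.21 to 0.962 at a −log10 q of at least 5, to 0.710 within pileup groups and to 0.764 within them without high-background regions. That of lying inside a gene went from 0.978 to 1.07 without high-background regions and 1.12 with both changes. None of these passed the threshold. That of STAT5B of the N642H line with prednisolone went from 1.44 to 0.123 without high-background regions, to 6.12 within pileup groups and to 0.381 with both changes, of which 0.123 and 6.12 passed the threshold. The combined setting was chosen after seeing the data. Comparisons with N642H-only regions at untreated STAT5B, and with WT STAT5B with prednisolone, kept their direction and call under every setting run. Linked genes numbered 617 in the span only and 1544 within 50 kb. In the span only, STAT5 targets fell to 3, the BCL2 family to 1 and T-cell receptor signalling to 2. Within 50 kb, the interleukin-7 receptor list rose to 2 and each of the non-blood and other blood lists to 1. With members of −log10 q of at least 5, receptor chaperones and cofactors fell to 2. Fewer or more regions enter by construction. No paired analysis was possible because each group held 1 library. The motif search around summits and its alternatives were not run. Intervals cover counting error only, and pileups with a median of 15 fragments limit what weak regions can show.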
